A study of Mus musculus with 50 samples.

Results

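Mcpt2 and Mcpt8 encode granule proteases of mast cells and basophils, and Rnase2a encodes a ribonuclease of the eosinophil-associated family. The transcript levels of these 3 genes were followed across an array series on mouse airways. The genes were found by their symbols in the platform annotation. All 3 had a probe on both array platforms, among 13409 named genes on the platform of 40 arrays and 13509 on the platform of 10 arrays, and each was read by 1 spot per array.

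Mast cells, basophils and eosinophils are white blood cells of allergic inflammation that keep enzymes in cytoplasmic granules and release them on activation. Mcpt2 encodes a chymase-like serine protease of mucosal mast cells, and Mcpt8 a serine protease used as a marker of mouse basophils. Rnase2a, also called Ear11, encodes a secreted ribonuclease of the eosinophil-associated family, which has also been described in macrophages. IL-13 is a cytokine of allergic airways that signals through the transcription factor Stat6.

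The series held 50 two-channel spotted arrays in 10 groups of 5, with RNA flushed from the trachea (tracheal perfusate) in 5 groups and RNA of the whole lung in the others. Both tissues had the same set of groups, namely PBS (saline), OVA (ovalbumin, an allergen), and IL-13 combined with Stat6+/-, with Stat6-/- or with Stat6-/- Epi+. A line known as Epi+ expresses Stat6 from a transgene in airway epithelial cells alone, but the labels hold no more than the mark. No group analysed here is labelled Stat6+/- or Stat6-/- without IL-13. The genotype of the OVA and PBS animals, strain, age, the way IL-13 was supplied and the times of treatment are not given in the sources. Perfusate RNA had been amplified in 1 round, as stated for 22 of the 25 arrays, whereas whole lung RNA had not been amplified, and the OVA and PBS lungs were measured on a platform of their own. Levels are log2 ratios to a reference RNA, less the median of the array, and a level of 0 therefore marks the array's middle spot and not absence. The reference differed between sets of arrays, so levels are set side by side only within perfusate, within the IL-13 lungs and within the OVA and PBS lungs. The IL-13 lungs were split between reference pools 3 and 4, so their array levels, means and overlaps mix pools. Epi+ had 3 and 2 arrays there, and Stat6+/- and Stat6-/- had 2 and 3 each. Mcpt2 in Stat6-/- lung, for example, averaged -0.09 in pool 3 and -1.27 in pool 4. Perfusate levels likewise mix 5 reference preparations. The tests had a term for the pool or preparation. In tissue RNA, fewer cells of a type and less RNA per cell cannot be told apart.

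Of the 3 genes, Rnase2a and Mcpt8 were matched in the RefSeq promoter table and Mcpt2 was not. Both promoters are shown because both genes were higher in OVA lung, and of the 3 genes Rnase2a alone passed the test between IL-13 lungs with and without Stat6. Each runs 5′ to 3′ on the gene's strand, over 300 bases that span the start of the gene, and was taken from RefSeq on build GRCm38.p6. Capitals mark GATA on either strand, the core letters bound by GATA factors of mast cells, basophils and eosinophils.
Rnase2a, chr14:51256063-51256362, minus strand: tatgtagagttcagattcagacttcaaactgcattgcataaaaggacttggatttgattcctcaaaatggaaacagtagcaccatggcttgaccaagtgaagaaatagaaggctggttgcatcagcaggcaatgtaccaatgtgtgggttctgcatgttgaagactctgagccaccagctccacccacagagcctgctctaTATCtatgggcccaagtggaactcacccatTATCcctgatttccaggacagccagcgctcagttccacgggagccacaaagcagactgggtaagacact
Mcpt8, chr14:56085148-56085447, minus strand: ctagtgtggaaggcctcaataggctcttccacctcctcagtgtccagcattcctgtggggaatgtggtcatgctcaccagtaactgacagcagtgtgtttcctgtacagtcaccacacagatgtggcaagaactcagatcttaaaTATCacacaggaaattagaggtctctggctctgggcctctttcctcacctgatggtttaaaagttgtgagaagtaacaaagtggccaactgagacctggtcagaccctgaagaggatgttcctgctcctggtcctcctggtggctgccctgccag
The letters GATA were found on the opposite strand, as TATC, at 49 and 19 bases before the start of Rnase2a and at 105 bases before that of Mcpt8, and 57.9% of 32851 promoters of this length held them. The spaced palindrome TTCNNNNGAA, the form that Stat6 prefers, occurred in neither promoter and in 6.95% of all promoters. TTCNNNGAA, the form shared by other STAT factors, occurred in neither and in 8.30% of all promoters. Both motifs read the same on either strand, and a match or its absence in these windows says nothing on its own about binding. In the RefSeq order of genes, Mcpt2 and Mcpt8 lie on chromosome 14 in the cluster Cma1, Cma2, Mcpt1, Mcpt2, Mcpt9, Mcpt4, Mcpt8, Ctsg, and Rnase2a lies elsewhere on the same chromosome beside Rnase6, Rnase1, Rnase2b, Ang2 and Ear14. Signal from such relatives on the spots of Mcpt2, Mcpt8 and Rnase2a was not tested.

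Arrays had 15693 to 18655 spots with a value, and the medians removed from them ran from -0.96 to 0.30. Il13 was higher in the IL-13 perfusate groups than in PBS perfusate, by 1.73 to 2.72 on the log2 scale. It was lower in OVA perfusate than in each IL-13 group. The sources do not say which channel is the numerator. With the labels taken as right, it was likely the sample from this gene, which then cannot check the labels as well. No IL-13 lung shared a platform with PBS lung, so the sign in lung was not checked this way. On 5 arrays labelled Stat6-/- (3 from perfusate, 2 from lung) the Y-linked Eif2s3y spot stood at -3.45 to -1.93, against -0.71 to 1.34 on the other 35 arrays of that platform.

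**Figure D1:**
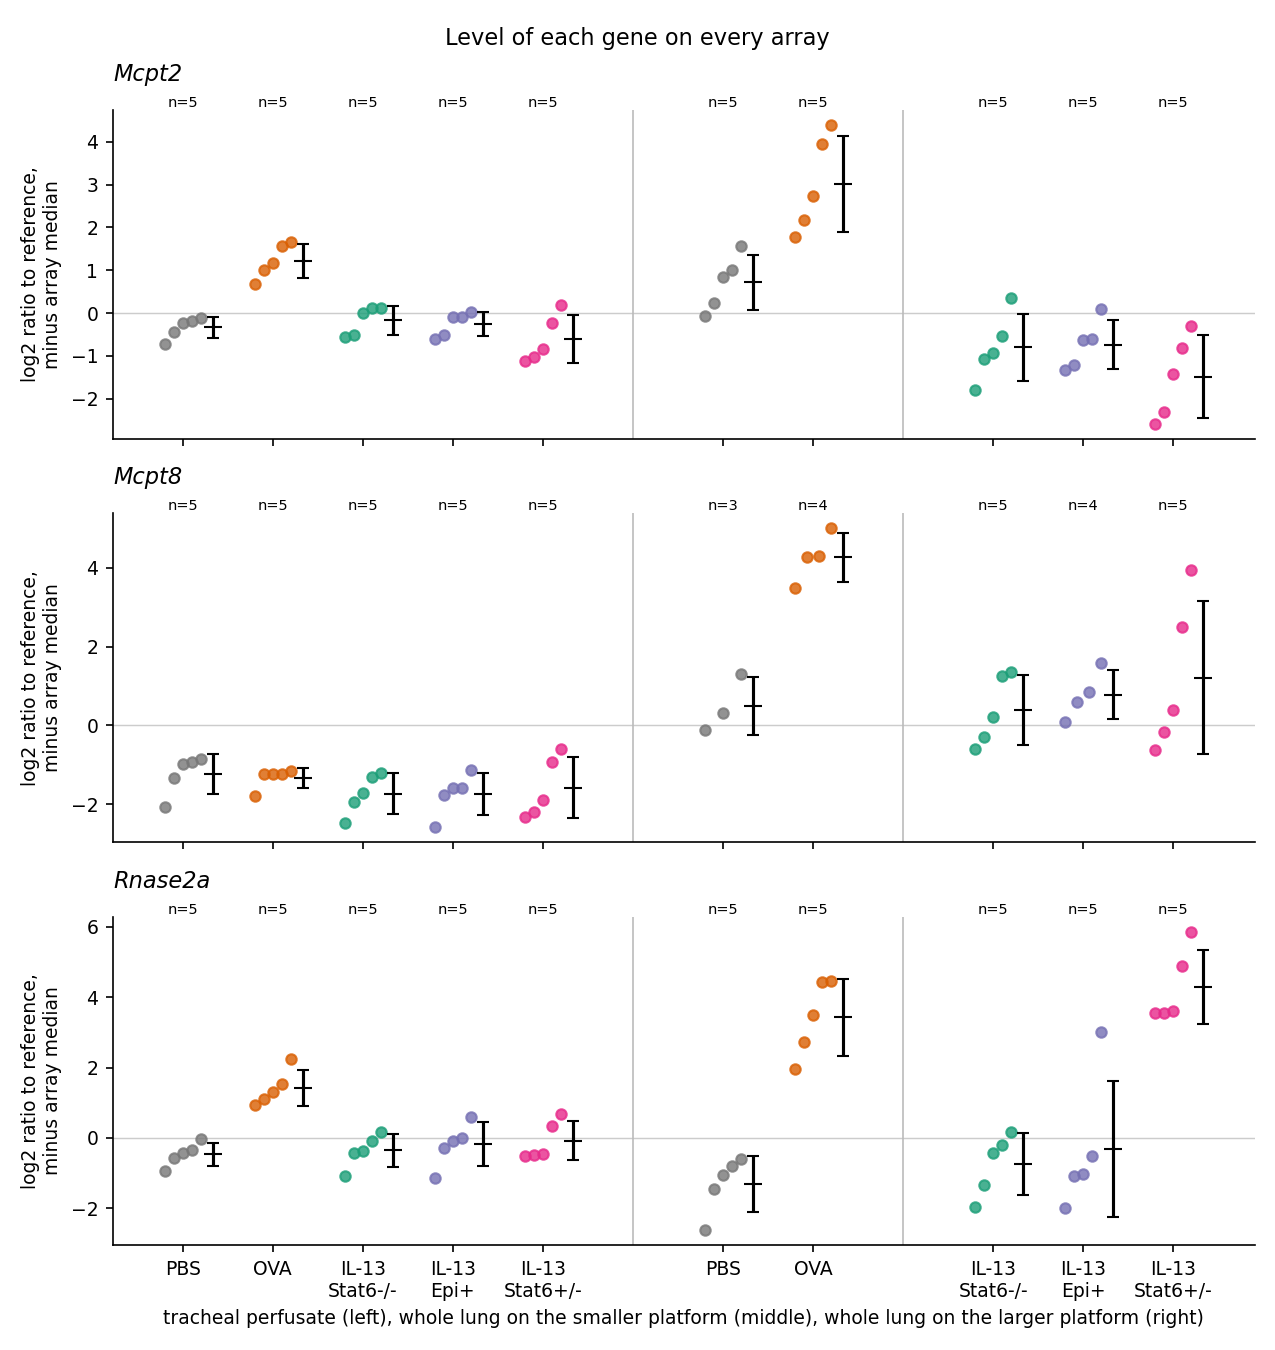
Level of Mcpt2, Mcpt8 and Rnase2a on every array, as log2 ratio to the reference minus the array median (y axis), by group (x axis), with 1 point per array and bars for the mean and SD beside the points. Mcpt2 and Rnase2a are high in both OVA groups, Mcpt8 is high in OVA lung, and Rnase2a is also high in the 5 Stat6+/- IL-13 lungs and on 1 Epi+ array.

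Mcpt2 was higher in OVA perfusate than in every other perfusate group. Its level on the OVA arrays was 1.57, 1.01, 1.67, 1.16 and 0.69, and on the PBS arrays -0.18, -0.44, -0.71, -0.23 and -0.12. No PBS array reached the lowest OVA array. The IL-13 Stat6+/- arrays read -1.11, -0.22, -0.85, 0.19 and -1.03, the Stat6-/- arrays 0.12, 0.11, -0.55, -0.00 and -0.52, and the Epi+ arrays -0.10, 0.03, -0.60, -0.09 and -0.50. These 3 groups overlapped each other and PBS. In order, the means ± SD (n = 5 each) were 1.22 ± 0.41 in OVA, -0.17 ± 0.34 in Stat6-/-, -0.25 ± 0.28 in Epi+, -0.34 ± 0.24 in PBS and -0.60 ± 0.56 in Stat6+/-. Below OVA, neighbours in this order differed by less than the larger of their SDs.

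Rnase2a had the same high group in perfusate. Its OVA arrays stood at 0.94, 1.52, 1.30, 2.24 and 1.10, and its PBS arrays at -0.33, -0.58, -0.04, -0.93 and -0.42, without overlap. The Stat6+/- arrays read -0.47, -0.51, -0.47, 0.34 and 0.67, the Stat6-/- arrays -0.37, 0.17, -0.42, -1.08 and -0.08, and the Epi+ arrays -1.14, -0.28, 0.58, -0.01 and -0.08. Again these 3 overlapped each other and PBS, and all lay under the lowest OVA array. The means ± SD (n = 5 each) ran from 1.42 ± 0.51 in OVA to -0.09 ± 0.56 in Stat6+/-, -0.18 ± 0.62 in Epi+, -0.35 ± 0.47 in Stat6-/- and -0.46 ± 0.33 in PBS, and below OVA neighbours differed by less than either SD.

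Mcpt8 showed no high group in perfusate. The OVA arrays read -1.16, -1.23, -1.78, -1.24 and -1.23 and the PBS arrays -0.97, -1.34, -0.85, -2.06 and -0.93. The IL-13 groups covered -2.31 to -0.59 in Stat6+/-, -2.48 to -1.20 in Stat6-/- and -2.58 to -1.13 in Epi+. All 5 groups overlapped, and neighbouring group means differed by less than their SD.

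In limma's moderated test over the 25 perfusate arrays, with a term for the reference preparation and Benjamini-Hochberg adjustment over all probes, Mcpt2 and Rnase2a rose in OVA against PBS, so that 2 of 3 genes passed where 0.237% of 16873 probes did. Mcpt2 was higher by 1.56 ± 0.23 (log2 difference ± SE, limma adjusted p = 0.00279), a 2.94-fold difference. For Rnase2a the difference was 1.88 ± 0.31 (limma adjusted p = 0.00985), or 3.68-fold. The difference of -0.10 ± 0.35 for Mcpt8 did not pass (limma adjusted p = 0.967). Groups that did not overlap, with OVA above PBS, were found for 0.978% of probes. Each of the 5 reference preparations had been used for 1 array of every perfusate group. Within preparations, OVA exceeded PBS by 0.81 to 2.38 for Mcpt2 and by 1.27 to 2.82 for Rnase2a. It did so in 5 of 5 for both, which follows from their groups not overlapping and is no further evidence. For Mcpt8 it did so in 2 of 5. Without centring, the adjusted p was 0.0626 for Mcpt2 and 0.101 for Rnase2a. In a fit of only the OVA and PBS arrays it was 0.182 and 0.181, with differences of the same size.

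**Figure D2:**
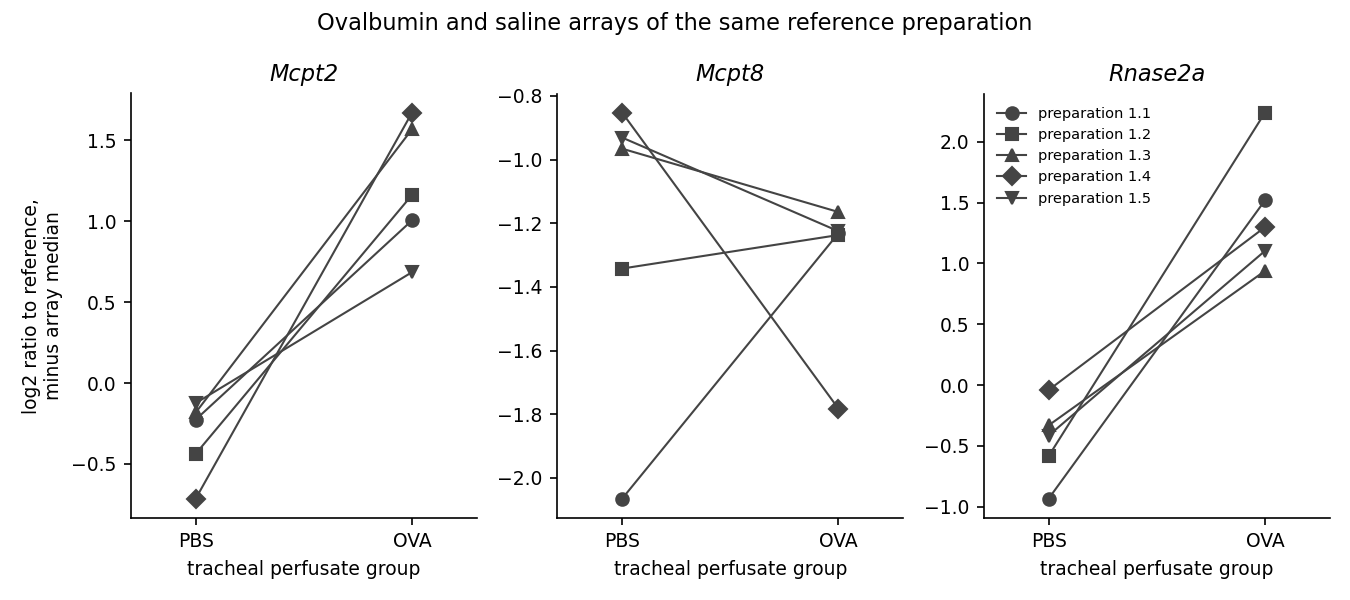
Level in tracheal perfusate (y axis, log2 ratio minus array median) of the PBS and the OVA array that shared a reference preparation, joined by a line for each of the 5 preparations. All 5 lines climb for Mcpt2 and for Rnase2a, as they must where the groups do not overlap, and 2 of 5 climb for Mcpt8. The y axes differ between genes.

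The IL-13 groups of perfusate gave no call for the 3 genes. Against PBS, none of 3 passed for Stat6+/- (7.13% of probes did), Epi+ (2.83%) or Stat6-/- (0.599%). The largest of these 9 differences was -0.50 ± 0.35, for Mcpt8 in Epi+. Among the IL-13 groups, none of 3 passed between Stat6+/- and Stat6-/- (3.14% of probes), Epi+ and Stat6-/- (0.486%) or Stat6+/- and Epi+ (0.0237%). The widest gap here was that of Mcpt2 between Stat6+/- and Stat6-/-, at -0.44 ± 0.23 (limma adjusted p = 0.444). Leaving out the 3 arrays low in Eif2s3y, an omission chosen after the values were seen, Rnase2a moved from 0.27 to 0.59 in Stat6+/- and from 0.17 to 0.49 in Epi+ against Stat6-/-. Without them it stood at -0.21 in Stat6-/- against PBS, and Mcpt8 at -0.045 in Stat6+/- against Stat6-/-, both of opposite sign to the full fit, and none of these passed either.

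Set directly against the IL-13 groups, in comparisons added after the values were seen, OVA perfusate was higher for the same 2 of 3 genes each time. These comparisons share the OVA arrays with each other and with the contrast to PBS. Mcpt2 exceeded Stat6+/- by 1.82 ± 0.23, Epi+ by 1.47 ± 0.23 and Stat6-/- by 1.39 ± 0.23 (limma adjusted p = 1.72e-04, 0.00154 and 0.00204). Rnase2a exceeded them by 1.51 ± 0.31, 1.60 ± 0.31 and 1.77 ± 0.31 (limma adjusted p = 0.0104, 0.00944 and 0.00323). Over all probes, 3.57%, 2.03% and 4.05% passed, and 2.47%, 2.32% and 2.17% had every OVA array above every IL-13 array, as both genes did. In fits of only the 2 groups compared, all 6 calls were lost, with limma adjusted p from 0.125 to 0.171. Calls were also lost for Mcpt2 against Stat6-/- without the arrays low in Eif2s3y (1.42, adjusted p = 0.0566) and for Rnase2a without centring against Stat6+/- (1.55, 0.0889) and Epi+ (1.74, 0.0508) and without reference preparation 1.3 against Epi+ (1.49, 0.0516).

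The list of mast cell genes had 11 of its 15 members measured in perfusate, and 2 rose in OVA against PBS. They were Mcpt2 and Tpsab1, a tryptase, which was higher by 1.57 ± 0.29 (limma adjusted p = 0.0249). The median over the list was 0.18, against -0.0068 over all probes, and 6 of 11 were above 0, with Mcpt9 lowest at -0.29. Cpa3, the mast cell carboxypeptidase, differed by 0.87 and Tpsb2, a second tryptase, by 0.37, and neither passed. Against each IL-13 group 3 of 11 were higher in OVA, namely Mcpt2, Tpsab1 and Cpa3. Tpsab1 was higher by 2.49, 2.55 and 2.45 and Cpa3 by 1.89, 1.43 and 1.68 than in Stat6+/-, Epi+ and Stat6-/-. For both genes these gaps exceeded the gap to PBS. The Tpsab1 mean was -0.98, -1.04 and -0.94 in these groups and -0.07 in PBS. None of the 11 passed between an IL-13 group and PBS. Kit, the stem cell factor receptor, and Fcer1a and Ms4a2, chains of the IgE receptor, differed by -0.078, 0.18 and -0.017 in OVA against PBS and did not pass. Averaged over the 10 listed genes other than Mcpt2, the level ran from 0.031 to 0.48 in OVA and from -0.19 to -0.0037 in PBS, a mean in which Tpsab1, Cpa3 and Tpsb2 had the largest differences.

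Of the basophil list 0 of 5 measured genes passed in OVA against PBS perfusate, and of the eosinophil list only Rnase2a among 9. Prg2 and Epx, which encode the major basic protein and the peroxidase of eosinophil granules, differed by 0.16 and 0.20. Of 6 measured genes of the ribonuclease family, Rnase2a passed. The macrophage list was mixed beside it, with 2 of 7 higher, a median of 0.080 and 4 of 7 above 0. Cd5l, a secreted scavenger-type protein of macrophages, was higher by 1.79 ± 0.27. Arg1, the arginase of macrophages exposed to IL-4 or IL-13, was higher by 1.28 ± 0.22. Its mean was -0.33 in PBS and lower in the IL-13 groups, at -1.06 (Stat6+/-), -0.84 (Epi+) and -0.59 (Stat6-/-). Marco, a scavenger receptor, differed by -1.80 ± 0.78 and Retnla by 1.13 ± 0.55, and neither passed. The mean level of the macrophage list was 0.10 to 0.34 in OVA and -0.58 to 0.45 in PBS, so that these groups overlapped. Of the airway epithelial list, 2 of 10 rose in the same contrast, Clca1 and Muc5ac, genes of mucous cells, by 3.39 ± 0.31 and 2.81 ± 0.32. The part of these cells in the levels of Mcpt2 and Rnase2a was not tested.

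Across the 25 perfusate arrays, with the mean of each preparation removed, the probes most like Mcpt2 were Tpsab1 (Pearson r = 0.864), Arg1 (0.863), Tpsb2 (0.838), Myb (0.806) and Pcdhgb6 (0.805), among 14005 probes. For Rnase2a they were Pcdhgb6 (0.883), Cst11 (0.852), Mrpl3 (0.812), Cd5l (0.809) and Pds5a (0.789). For Mcpt8 the highest value was 0.770, with Stxbp5, followed by Gad2, Mapk6, Zbtb1 and Trem1. These arrays share a platform, and the values include the differences between groups. Tpsab1 stood at 1.51 ± 0.65 in OVA, -0.07 ± 0.88 in PBS and between -1.04 and -0.94 in the means of the IL-13 groups (SD, n = 5 each).

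In whole lung, Rnase2a was high in OVA against PBS. The OVA arrays read 2.73, 3.50, 1.97, 4.44 and 4.47 and the PBS arrays -1.04, -0.61, -1.44, -0.80 and -2.63. The groups lay far apart, with means ± SD of 3.42 ± 1.09 and -1.31 ± 0.80 (n = 5 each). Mcpt8 read 4.28, 4.31, 5.00 and 3.48 on the 4 OVA arrays with a value and 0.31, -0.13 and 1.31 on the 3 PBS arrays with a value. The spot was missing on 1 OVA and 2 PBS arrays, and its means ± SD were 4.26 ± 0.62 (n = 4) and 0.50 ± 0.73 (n = 3). A missing spot gives no level, so the PBS mean leaves out 2 of 5 saline arrays. Mcpt2 read 2.74, 2.18, 1.79, 4.39 and 3.95 in OVA and 1.56, -0.06, 0.83, 0.24 and 1.00 in PBS, again without overlap, with means ± SD of 3.01 ± 1.12 and 0.71 ± 0.64 (n = 5 each).

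Rnase2a and Mcpt8 rose in OVA lung, 2 of 3 genes where 1.75% of 17047 probes passed. Rnase2a was higher by 4.73 ± 0.55 (limma adjusted p = 0.00659), a 26.5-fold difference and the 5th largest rise among the probes tested. Mcpt8 was higher by 3.77 ± 0.48 (limma adjusted p = 0.0135), or 13.6-fold. Mcpt2 differed by 2.30 ± 0.53 and missed the threshold (limma adjusted p = 0.0564). For all 3 genes every measured OVA array lay above every measured PBS array, as it did for 4.47% of probes. Mcpt8 also missed the threshold without centring (3.46, adjusted p = 0.0666) and under quantile normalization (3.30, adjusted p = 0.0805).

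The basophil list had 2 of 5 measured genes higher in OVA lung, Mcpt8 and Il4, a cytokine of basophils and T helper cells, which was higher by 3.00 ± 0.25 (limma adjusted p = 6.02e-04). Il3ra, Itga2 and Cd200r3 differed by -0.17, -0.20 and 0.65 and did not pass. Another probe of Cd200r3 differed by 1.28 ± 0.58 and did not pass either (limma adjusted p = 0.336). The T cell list, whose cells also make Il4, had 0 of 7 genes past the threshold, and its mean level was -0.15 to 0.57 in OVA and -1.28 to -0.34 in PBS. The mast cell list had 1 of 11, Fcer1a, the binding chain of the IgE receptor, at 2.55 ± 0.49 (limma adjusted p = 0.0354). Cpa3 differed by 2.94 ± 1.11 and Tpsab1 by 1.06 ± 0.39, and neither passed. The median over the mast cell list was 0.69, against 0.03 over all probes, with 8 of 11 above 0 and the lowest gene at -1.05. The mean level of the mast cell list without Mcpt2 was 0.55 to 1.27 in OVA and -0.07 to 0.32 in PBS.

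Of the eosinophil list only Rnase2a passed among 9 genes in OVA lung, although the list's median of 0.88 exceeded the 0.03 of all probes. Ccr3, the eotaxin receptor, differed by 2.86 ± 0.68 (limma adjusted p = 0.0708), Prg2 by 1.62, Prg3 by 1.26 and Epx by 0.18. Ccl11, the eotaxin that attracts eosinophils, rose by 1.51 ± 0.22. Of the ribonuclease family, 2 of 6 rose, Rnase2a and Rnase6 (1.02 ± 0.21). Among granule proteases and their helpers, 3 of 13 rose, Mcpt8, Gzma (granzyme A, 1.50 ± 0.27) and Ctsc (cathepsin C, which activates such proteases, 1.27 ± 0.27). Of 7 macrophage genes 4 rose, Arg1 by 5.66, Retnla by 2.87, Adgre1 by 2.12 and Cd68 by 1.68. The mean level of this list was 1.75 to 3.16 in OVA and -0.68 to 0.67 in PBS, whereas the 5 endothelial genes measured differed by -1.15 to -0.80 with none past the threshold. Of the airway epithelial list 3 of 10 rose, the mucous cell genes Clca1 by 6.13, Muc5ac by 4.00 and Muc5b by 1.66. The part of these cells in the levels of Rnase2a and Mcpt8 was not tested.

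**Figure D3:**
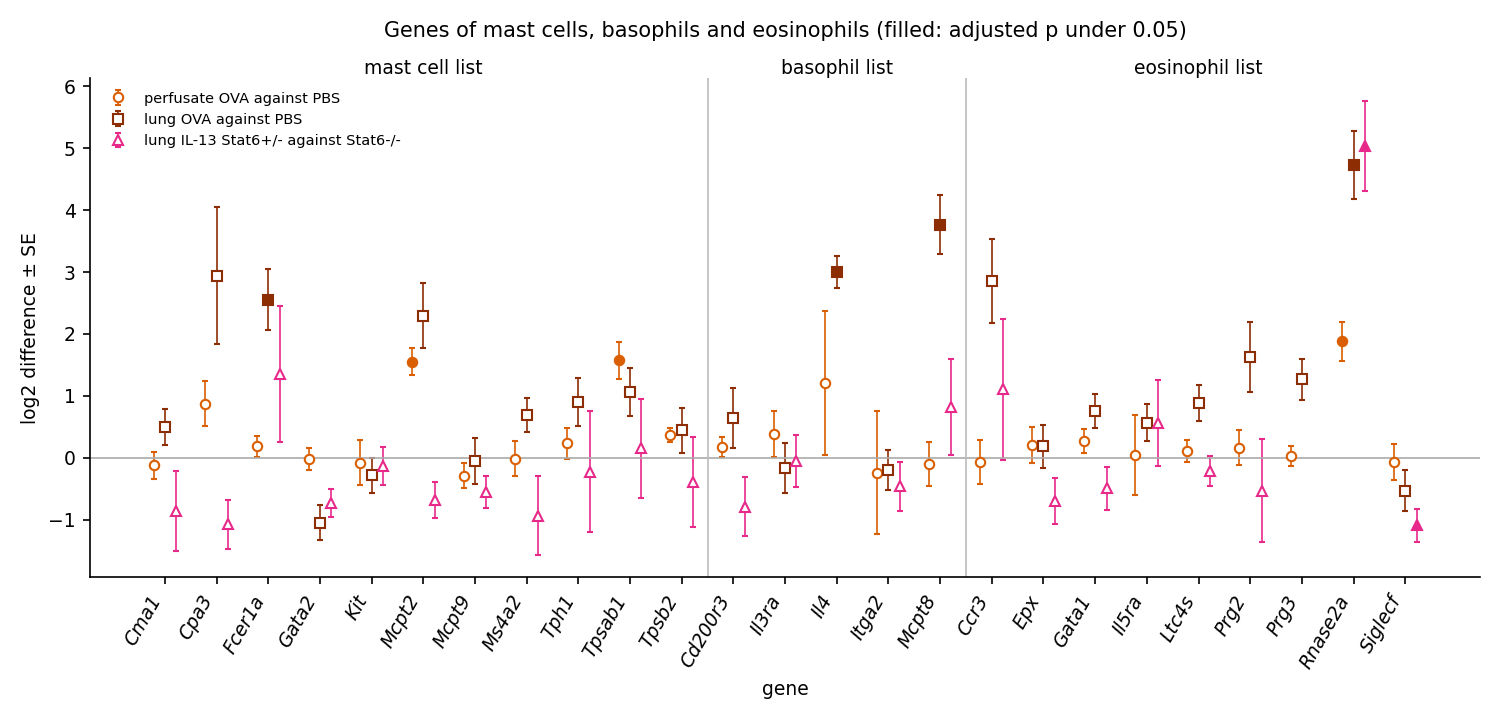
Log2 difference ± SE (y axis) of each measured gene of the mast cell, basophil and eosinophil lists (x axis) in 3 comparisons, filled where the adjusted p was under 0.05. Rnase2a has the largest difference of the eosinophil list in each comparison, Mcpt8 and Il4 are filled in OVA lung, and Mcpt2 and Tpsab1 in OVA perfusate.

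In lungs with IL-13, Rnase2a was high in the Stat6+/- group. The 5 Stat6+/- arrays read 3.60, 3.54, 4.88, 5.86 and 3.55, and the 5 Stat6-/- arrays -0.42, -1.96, -1.34, -0.21 and 0.18. The Epi+ arrays read -1.03, -2.01, -1.08, -0.50 and 3.00. All Stat6+/- arrays lay above all others, and the Epi+ arrays overlapped the Stat6-/- arrays apart from Epi+ replicate 6, at 3.00. The means ± SD (n = 5 each) were 4.29 ± 1.05 in Stat6+/-, -0.32 ± 1.94 in Epi+ and -0.75 ± 0.88 in Stat6-/-, and the last pair differed by less than the SD.

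Rnase2a was the single one of 3 genes to pass between Stat6+/- and Stat6-/- lung, where 4.84% of 16096 probes passed. It was higher by 5.04 ± 0.73 (limma adjusted p = 0.00166), a 32.8-fold difference and the 8th largest rise. Between Stat6+/- and Epi+ it was higher by 4.36 ± 0.74 (limma adjusted p = 0.00671), again 1 of 3 genes, where 3.42% of probes passed. Without Epi+ replicate 6 this difference was 5.22 (limma adjusted p = 7.29e-04), and in a fit of only those 2 groups it was 4.38 (limma adjusted p = 0.0772). Groups without overlap, Stat6+/- being higher, were found for 3.35% and 3.5% of probes in these comparisons. Between Epi+ and Stat6-/- none of 3 passed (0.0746% of probes did), and Rnase2a differed by 0.68 ± 0.74, or by -0.18 without Epi+ replicate 6. In the lungs hybridised against reference pools 3 and 4, taken apart, Stat6+/- exceeded Stat6-/- by 5.86 and 4.49, with 2 and 3 arrays per group. A rise in both pools follows from the groups not overlapping and is no further evidence.

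Mcpt2 and Mcpt8 did not separate the IL-13 lungs. Mcpt2 read -1.42, -2.32, -0.82, -2.59 and -0.29 in Stat6+/-, -0.93, -0.54, 0.35, -1.80 and -1.07 in Stat6-/- and -0.60, -0.63, -1.21, 0.09 and -1.34 in Epi+, and all groups overlapped. Stat6+/- stood -0.69 ± 0.29 from Stat6-/- (limma adjusted p = 0.215). Mcpt8 read -0.63, 3.95, 2.50, -0.16 and 0.40 in Stat6+/-, 0.21, 1.35, 1.25, -0.29 and -0.59 in Stat6-/- and 1.57, 0.08, 0.60 and 0.85 on the 4 Epi+ arrays with a value. Stat6+/- replicates 3 and 4, at 3.95 and 2.50, were above every other IL-13 lung, and the remaining 3 fell inside the Stat6-/- range or just below it. The difference of 0.83 ± 0.78 between Stat6+/- and Stat6-/- did not pass (limma adjusted p = 0.616) and was 0.02 without replicate 3 of Stat6+/-.

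The genotype difference of Rnase2a differed between tissues. In the fit over the larger platform's 40 arrays, Stat6+/- minus Stat6-/- was smaller in perfusate than in lung (interaction -4.77 ± 0.76 on the log2 scale, limma adjusted p = 1.21e-04). The separate fits of each tissue gave 0.27 ± 0.31 in perfusate and 5.04 ± 0.73 in lung. Without the 5 arrays low in Eif2s3y the interaction was -4.23 (limma adjusted p = 0.0365), with 0.59 in perfusate and 4.82 in lung. Of the 3 genes 1 passed, against 4.31% of 15370 probes. For Epi+ against Stat6-/- none of 3 passed (0.0976% of probes). Perfusate RNA was amplified and lung RNA was not, so that tissue and preparation cannot be told apart. The OVA response could not be compared between tissues in this way, because the OVA lungs were on another platform.

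**Figure D4:**
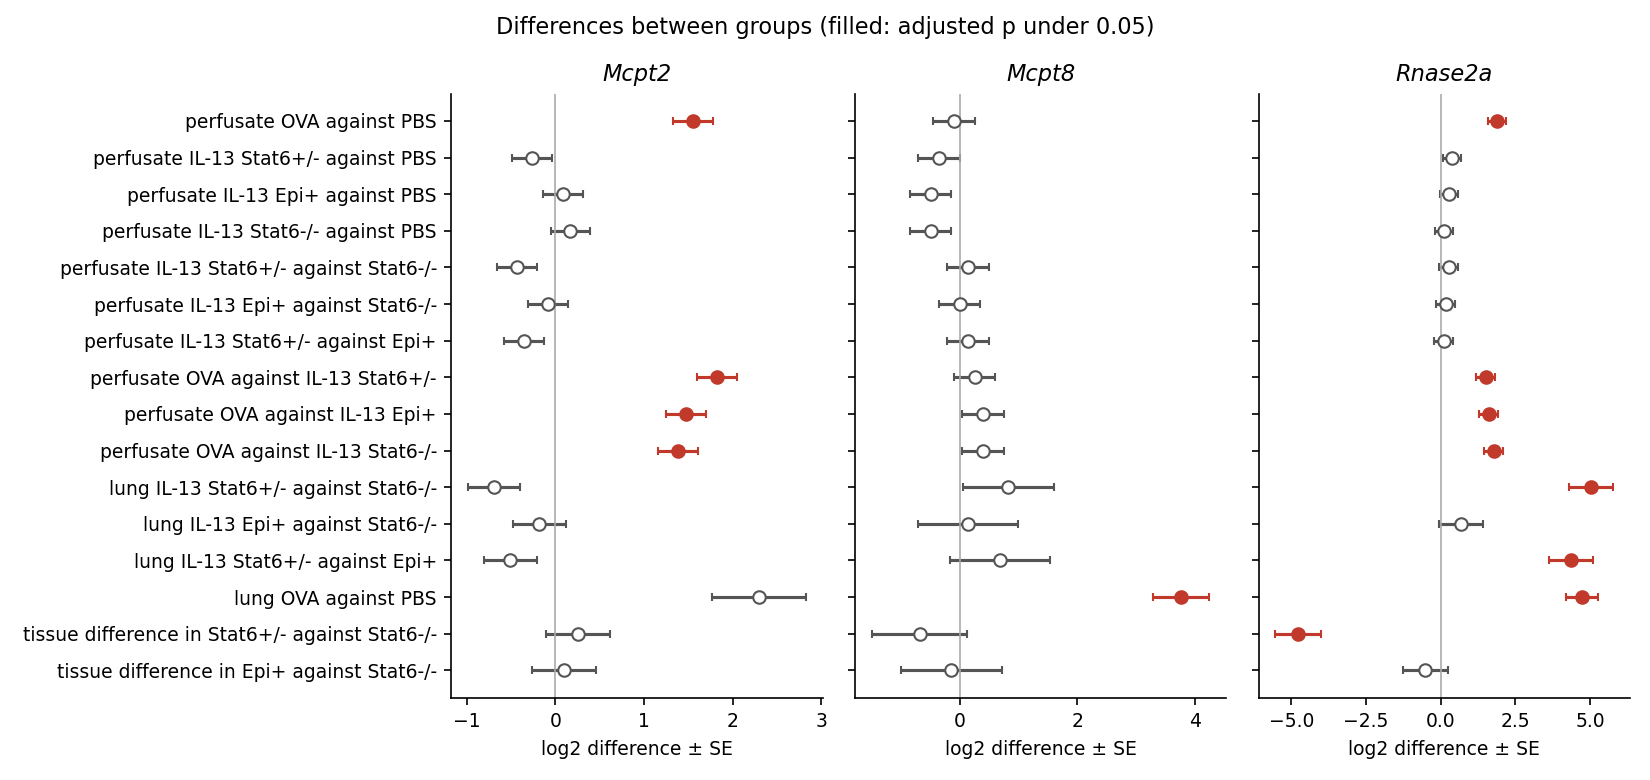
Log2 difference ± SE (x axis) of Mcpt2, Mcpt8 and Rnase2a in the 16 comparisons (y axis), filled where the adjusted p was under 0.05. Filled points are the OVA comparisons of perfusate for Mcpt2 and Rnase2a, OVA lung for Mcpt8 and Rnase2a, and the Stat6+/- lung comparisons and 1 tissue difference for Rnase2a; the x axes differ between genes.

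Beside Rnase2a, no measured eosinophil gene passed as higher in Stat6+/- than in Stat6-/- lungs. Of 8 measured eosinophil genes, Rnase2a rose and Siglecf, a surface lectin of eosinophils and alveolar macrophages, fell by 1.09 against Stat6-/- (limma adjusted p = 0.0416). Epx differed by -0.70, Prg2 by -0.53 and Ccr3 by 1.10, and none of them passed. The list's median was -0.36, against -0.04 over all probes. The mast cell list had 0 of 11 and the basophil list 0 of 4 genes past the threshold. The mast cell median was -0.56, with 2 of 11 above 0, and the basophil median -0.26, with 1 of 4 above 0. Of 5 measured ribonuclease genes 2 rose, Rnase2a and Rnh1, the inhibitor of secreted ribonucleases (1.27 ± 0.22). Among granule proteases and their helpers, Srgn, the granule proteoglycan, rose by 1.13 ± 0.25 and Gzmb, granzyme B, fell by 2.58, 2 of 12 in all.

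Genes of macrophages and of other cell types differed beside Rnase2a in the same lungs. Against Stat6-/-, 5 of 7 rose, Arg1 by 6.28, Retnla by 4.92, Cd68 by 3.12, Marco by 2.28 and Mrc1 by 1.86. The mean level of the list was 2.67 to 3.72 in Stat6+/-, -0.22 to 0.44 in Stat6-/- and 0.28 to 1.59 in Epi+, so the Stat6+/- arrays stood apart here too. Of a list of signals of allergic (type 2) inflammation and their receptors, Il33 rose by 3.37 ± 0.30 and Ccl11 by 3.24 ± 0.32, 2 of 17 measured. Of the neutrophil list, 1 of 8 rose, Ltf (lactoferrin) by 2.89. Of the airway epithelial list 3 of 10 rose, Clca1 by 7.58, Muc5ac by 3.87 and Muc5b by 2.85. Of 4 genes of alveolar type II cells 2 rose, the surfactant proteins Sftpd by 1.63 and Sftpa1 by 0.90, and of 5 endothelial genes 2 were lower, the receptors Tek and Kdr, which fell by 1.35 and 1.23. The part of these cells in the level of Rnase2a was not tested.

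Over the 15 IL-13 lungs, with each pool's mean removed, the probes most like Rnase2a were Saa3 (r = 0.938, 14 arrays), Cxcl1 (0.937, 14 arrays), Hal (0.937, 13 arrays), Ccl9 (0.932, 15 arrays) and S100a4 (0.915, 15 arrays), among 12763 probes. These values also include the differences between groups. For Mcpt2 they were Aspdh (0.865), 2810454L23Rik, Arsk, Adamtsl1 and Snrpb, and for Mcpt8 Snx24 (0.897), Trim10, Dio2, Sfrp1 and Fam83h. None of these 10 genes is on the lists of mast cell, basophil or eosinophil genes.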

How the data were processed

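Two-colour arrays of 25 tracheal perfusate and 25 whole lung samples were used, per the labels with a reference in channel 1 and the sample in channel 2. Each spot has 1 deposited value, a log2 ratio. The platforms held 19152 spots (40 arrays) and 18240 spots (10 arrays). How the authors scanned, background-corrected and normalized the arrays is not given in these sources. Spots could not be filtered on signal over background. Each array was centred on its median and spots of 1 accession were averaged, leaving 18272 and 18057 probes. The group means of the removed medians differed by -0.37 to 0.49 between sides of a comparison, and differences are relative to these shifts. Symbols came from the platform annotation, and a listed gene with several probes is given by the probe with most values.

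Models were fitted by least squares, handling missing values exactly, and variances were moderated with limma 3.58.1 in R 4.3.3. Testing needed a value on 3 or more arrays of each group, and a probe was called at a Benjamini-Hochberg adjusted p under 0.05 over all probes of a comparison. Perfusate fits (25 arrays) had a term for 5 reference preparations, IL-13 lung fits (15 arrays) one for the reference pool, OVA and PBS lungs (10 arrays) none, and tissue differences were interactions over 40 arrays. The model was tested on simulated data. Groups were read from titles and descriptions. Nothing says that arrays were separate animals, so p-values measure only how these samples vary, which may be technical. The number of arrays limits the precision.

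Named are the 3 genes, listed genes past the threshold (up to 6 per list and comparison) or defining a cell type, Il13, and the 5 most correlated probes per gene and tissue. The genes and lists were chosen with earlier results of these data known.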

Additional observations from a re-analysis of the deposited data

Results flagged for a closer look

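Mcpt8 in OVA perfusate had 1 array apart from the others, replicate 30, at -1.78 against -1.24 to -1.16 on the other 4. Its gap to the nearest array was 0.883 of the group's range, above Dixon's limit for 5 arrays. Of the 29 groups of 4 or 5 values tested over the 3 genes, 1 was found this way, and chance marks about 1 group in 20.

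The difference of Rnase2a between Stat6+/- and Stat6-/- under IL-13 was not the same in the tissues, with an interaction of -4.77 ± 0.76 for perfusate minus lung (limma adjusted p = 1.21e-04, 5 arrays per group). All 5 Stat6+/- lungs lay above all 5 Stat6-/- lungs, and the corresponding perfusate groups overlapped. Over the 27 alternatives the interaction ran from -5.10 to -4.11 and the adjusted p from 5.37e-06 to 0.0365.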

How the results depend on the processing

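The 3 genes in 16 comparisons gave 48 differences, of which 13 passed the threshold. No called difference changed direction under any alternative, and none lost its call when a single array was left out, although for Mcpt8 in OVA lung only 7 of 10 omissions left enough arrays. Each gene had 1 spot, so taking spots singly changes nothing. The comparisons of OVA with IL-13 perfusate and the omission of the arrays low in Y-linked signal were chosen after seeing the data.

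Calls were lost for OVA against PBS perfusate as deposited (Mcpt2 1.51, Rnase2a 1.84) and with only those groups in the fit (1.56, 1.88). Against IL-13 perfusate, fits of only those groups lost Mcpt2 (1.82 from Stat6+/-, 1.47 from Epi+, 1.39 from Stat6-/-) and Rnase2a (1.51, 1.60, 1.77), values as deposited lost Rnase2a against Stat6+/- (1.55) and Epi+ (1.74), and omitting preparation 1.3 lost it against Epi+ (1.49). Marking or omitting the arrays low in Y-linked signal lost Mcpt2 against Stat6-/- (1.42 both times). In lung, Rnase2a lost its call against Epi+ in the fit of only those groups (4.38), and Mcpt8 in OVA lost it as deposited (3.46) and under quantile normalization (3.30). Array weights added Mcpt2 in OVA lung (1.92), as did 1 of its 10 omissions (1.95 to 2.60). The cause of these changes was not tested, and the fits of 2 groups also held fewer arrays.

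The replicate numbers of the titles do not pair the lungs: 16 same-numbered pairs of arrays had correlations of deviations from -0.60 to 0.43, and 84 others from -0.57 to 0.68. With the number as a replicate block, OVA against PBS lung was 4.43 for Rnase2a (adjusted p = 0.185) and 3.76 for Mcpt8 (adjusted p = 0.187), and 0 probes passed in place of 299. Mcpt8 turned sign under the block between Stat6+/- and Stat6-/- (-0.033), Epi+ and Stat6-/- (-0.018) and Stat6+/- and Epi+ (-0.015).

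All other reversals were of differences that had not passed. As deposited they were Mcpt2 in Epi+ (-0.094) and Stat6-/- (-0.034) and Rnase2a in Stat6-/- (-0.096) against PBS perfusate, and Mcpt8 in Epi+ against Stat6-/- perfusate (0.023). Array weights turned Mcpt2 in Epi+ against PBS (-0.037) and Mcpt8 in Stat6+/- against Stat6-/- (-0.077) in perfusate, and Mcpt8 in Epi+ against Stat6-/- lung (-0.14). Marking or omitting the arrays low in Y-linked signal turned Rnase2a in Stat6-/- against PBS (-0.21 both times), Mcpt8 in Stat6+/- against Stat6-/- perfusate (-0.045 both times) and the Epi+ tissue difference of Rnase2a (0.031 and 0.044). Quantile normalization turned Mcpt8 in Epi+ against Stat6-/- perfusate (0.26), the Stat6+/- tissue difference of Mcpt2 (-0.14) and the Epi+ one of Mcpt8 (0.16). Without the reference term, Mcpt2 in Epi+ against Stat6-/- was 0.059 in lung and its tissue difference -0.14. Omitting preparation 1.3 gave Rnase2a -0.045 in Stat6+/- against Epi+ perfusate.

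Leaving out 1 array changed the sign of differences near 0. In perfusate these were Mcpt8 in OVA against PBS (-0.37 to 0.085), Stat6+/- against Stat6-/- (-0.15 to 0.37), Stat6+/- against Epi+ (-0.15 to 0.37) and Epi+ against Stat6-/- (-0.18 to 0.24), and Rnase2a in Epi+ against Stat6-/- (-0.032 to 0.36), Stat6+/- against Epi+ (-0.094 to 0.30) and Stat6-/- against PBS (-0.088 to 0.30). In Epi+ against Stat6-/- lung they were Mcpt8 (-0.21 to 0.41) and Rnase2a (-0.18 to 1.18). Among tissue differences they were those of Epi+ for Mcpt2 (-0.042 to 0.25), Mcpt8 (-0.41 to 0.21) and Rnase2a (-1.01 to 0.35), and that of Stat6+/- for Mcpt8 (-1.10 to 0.12).

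Counts of called probes moved more than the genes' own differences. Against PBS perfusate, 40 calls for OVA ran from 0 to 49 over the alternatives, 1203 for Stat6+/- from 4 to 2299, 478 for Epi+ from 0 to 1305 and 101 for Stat6-/- from 0 to 547. Among IL-13 perfusate groups, 529 ran from 69 to 989, 82 from 1 to 170 and 4 from 0 to 261, and for OVA against Stat6+/-, Epi+ and Stat6-/-, 603 ran from 3 to 1249, 342 from 2 to 773 and 683 from 4 to 1286. In lung, 779 for Stat6+/- against Stat6-/- ran from 95 to 1066, 12 for Epi+ against Stat6-/- from 4 to 14, 550 for Stat6+/- against Epi+ from 61 to 806 and 299 for OVA from 0 to 796. The tissue differences had 662 (236 to 919) and 15 (5 to 22). No signal over background could be read, so how it limits low spots was not tested.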

Other observations

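Mcpt9, which lies between Mcpt2 and Mcpt4 in the RefSeq order, did not pass in OVA against PBS in perfusate or lung, where it differed by -0.29 and by -0.05. Cma1, the chymase at the edge of the same cluster, differed by -0.12 in perfusate and by 0.49 in lung and did not pass either.

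Rnase4 and Rnase6 encode secreted relatives of Rnase2a. Rnase4 was lower in OVA than in IL-13 Stat6+/- perfusate by 0.79 on the log2 scale (difference -0.79 ± 0.16, limma adjusted p = 0.0113), where Rnase2a was higher. In Stat6+/- against Stat6-/- lung Rnase6 differed by 0.21 and Rnase4 by 0.12, and neither passed.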
